A study of Rattus norvegicus with 6 samples.

Results

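Mast cells carry surface receptors that restrain the release of granules set off by the IgE receptor. Most of these receptors hold an immunoreceptor tyrosine-based inhibitory motif, a short cytoplasmic stretch that is phosphorylated by Src-family kinases and then recruits the phosphatases SHP-1, SHP-2 or SHIP-1, which take phosphate off the activating signal. The set described here holds 9 genes, chosen by name from the 22601 genes of the deposited table, and all 9 were listed there. They are Klrg1, Lilrb4, Pirb, Cd300a, Cd300lf, Sirpa, Cd200r1, Cd33 and Allc. The table annotates 8 of them as receptors or leukocyte surface molecules. Allc is annotated as allantoicase, an enzyme of purine breakdown, so the name inhibitory receptors holds for the other 8 only.

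The genes were measured by RNA-seq in RBL-2H3, a rat basophilic leukemia line often used to study mast cell degranulation, and in which the product of Klrg1 was first known as the mast cell function-associated antigen. PIO, which the series' title calls a PPARγ agonist, was added at 10 µM for 6 h to cells labelled wild type, and the control cells, of the same line and genotype, were not given it (3 libraries each). The labels name no vehicle for the control, and they leave unsaid whether each replicate was its own culture. The spread behind the p-values may thus be technical. A leukemia line grown in culture, here the only cell source, can differ from tissue mast cells.

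Library totals of 14048202 to 15084729 reads were inferred from the FPKM (fragments per kilobase of gene length, scaled to the reads of the library). Whole reads per gene were recovered from the same values. Across genes, log2 values of any pair of libraries correlated at 0.992 to 0.996, and libraries of the same group differed by more than counting noise (overdispersion of 2.76 to 6.09). Markers of mast cells and basophils summed to 4620 to 4765 FPKM in PIO libraries and 4593 to 4793 FPKM in control libraries, and of the 12 only the tryptase gene Tpsb2 was under 1 FPKM. Of 9 macrophage markers 8 averaged under 1 FPKM, with Cd14, C1qa, C1qb and Marco at 0 in all libraries, and of 10 T and NK cell markers 9 did, with Cd3d, Cd8a, Gzma and Klrb1 at 0. The exception in the second list was Nkg7, a granule membrane gene, at 329 to 370 FPKM in PIO libraries and 309 to 334 FPKM in control libraries. All 5 B cell markers and all 7 neutrophil markers averaged under 1 FPKM.

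The 9 genes spanned a wide range of levels. In FPKM, which are per length, the order was Klrg1, Cd300a, Cd200r1, Cd300lf, Lilrb4 and Cd33, followed by Pirb, Sirpa and Allc at or near 0. For each neighbouring pair from Klrg1 down to Cd33, the lowest library of the higher gene lay above the highest library of the lower gene. The smallest such gap was between Lilrb4, with a lowest value of 1.16 FPKM, and Cd33, with a highest value of 0.917 FPKM. Pirb, Sirpa and Allc could not be put in order. Klrg1 made up 56.4% to 57.8% of the summed FPKM of the 9 genes in PIO libraries and 57.1% to 59.0% in control libraries. The 9 genes together summed to 221 to 229 FPKM in PIO libraries and 211 to 222 FPKM in control libraries.

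**Figure D1:**
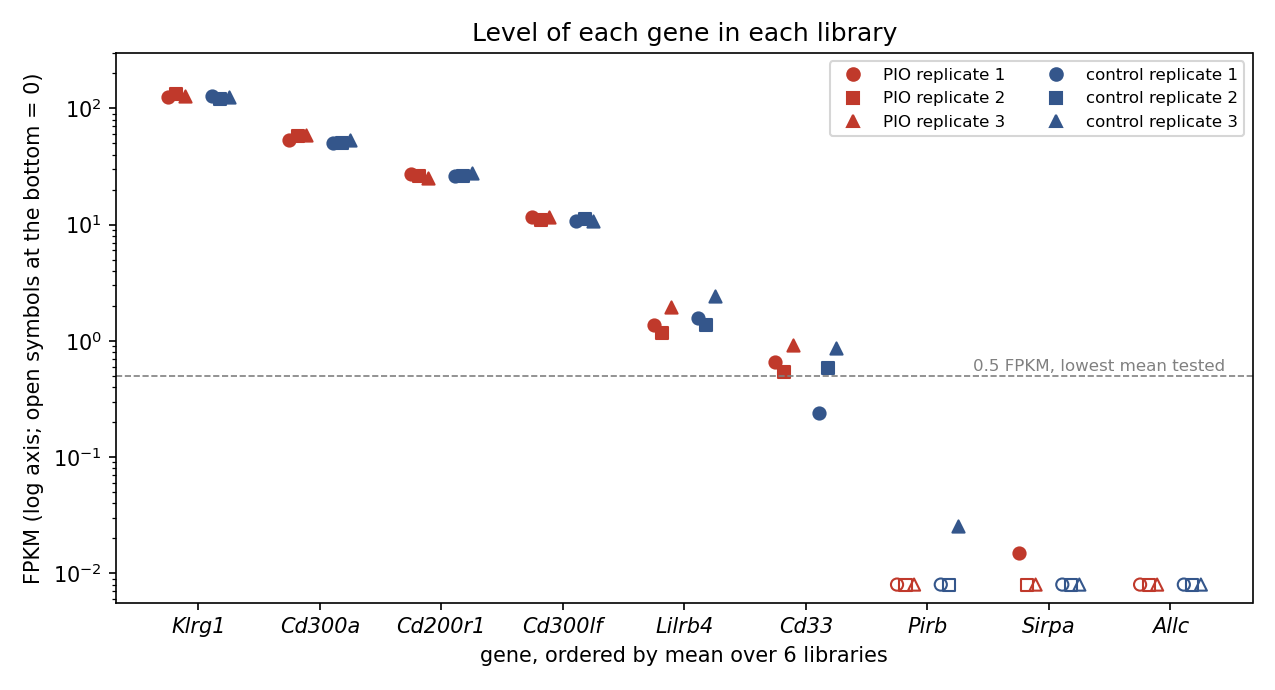
FPKM of each of the 9 genes (log axis) in each of the 3 PIO libraries (red) and 3 control libraries (blue), with circle, square and triangle for replicates 1, 2 and 3 and open symbols for values of 0. Klrg1 lies highest, between 121 and 133 FPKM, and Pirb, Sirpa and Allc lie at or near 0 in every library.

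No gene of the set passed the test for a change with PIO. A mean of at least 0.5 FPKM was needed for the test, which 6 of the 9 reached, and 0 of these 6 passed an adjusted p of 0.05 (limma with Benjamini-Hochberg adjustment over 10410 genes). Over all genes tested 0.0384% passed. Of the 6, 4 were higher and 2 lower. Their median log2 fold change was 0.05, against 0.0094 over all genes tested. At an unadjusted p under 0.05 by limma, 1 of the 6 stood out, Cd300a, against 12.5% of all genes, and limma-voom on the recovered reads also called 0 of the 6, with Cd300a the only gene at an unadjusted p under 0.05. In bulk samples such as these, fewer cells with a transcript and less transcript per cell cannot be told apart.

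Cd300a (GeneID 501736) encodes an inhibitory receptor of the CD300 family that binds phosphatidylserine and phosphatidylethanolamine on dying cells. It was at 53.7, 57.9 and 59.5 FPKM in PIO replicates 1 to 3, against 50.7, 50.8 and 53.2 FPKM in control replicates 1 to 3. All 3 PIO libraries lay above all 3 control libraries, by a narrow margin between PIO replicate 1 and control replicate 3, and 10.5% of all genes tested showed the same separation with PIO higher. The means were 57.1 ± 2.98 FPKM with PIO and 51.6 ± 1.39 FPKM in control (SD, n = 3 each), which is 10.7% higher with PIO. The log2 fold change was 0.14 (SE 0.05, 95% interval 0.04 to 0.25, limma unadjusted p = 0.0144) and did not pass the adjustment (adjusted p = 0.34). The reads were 1134, 1246 and 1259 in PIO replicates 1 to 3, against 1149, 1076 and 1180 in control replicates 1 to 3. Reads of the 2 groups overlapped before scaling to library size. Without PIO replicate 3 the unadjusted p by limma was 0.0572, with a log2 fold change of 0.11.

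Cd300lf (GeneID 287818) encodes a second CD300 receptor, which in mouse binds ceramide and restrains mast cell activation. It was at 11.7, 10.9 and 11.6 FPKM in PIO replicates 1 to 3, against 10.8, 11.3 and 10.9 FPKM in control replicates 1 to 3. The groups overlapped, with control replicate 2 above PIO replicate 2. Its log2 fold change was 0.05 (SE 0.05, 95% interval -0.07 to 0.18, limma adjusted p = 0.684). Its levels are uncertain, because its span overlaps that of Rab37, a small GTPase gene, in the RefSeq annotation of GRCr8, and no source used here says whether reads were counted by strand. Rab37 stood at 44.9 ± 0.847 FPKM with PIO and 43.8 ± 1.44 FPKM in control (SD, n = 3 each).

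Cd300a and Cd300lf lie in the same gene cluster, and their promoters are shown because Cd300a is the gene of the set whose groups separated and Cd300lf its family member whose groups overlapped. The windows are the 250 bases before the annotated start in RefSeq, build GRCr8, at chr10:100428576-100428825 on the plus strand for Cd300a and chr10:100875023-100875272 on the minus strand for Cd300lf. Capitals mark the letters AGGAAGT, a core bound by ETS factors.
Cd300a: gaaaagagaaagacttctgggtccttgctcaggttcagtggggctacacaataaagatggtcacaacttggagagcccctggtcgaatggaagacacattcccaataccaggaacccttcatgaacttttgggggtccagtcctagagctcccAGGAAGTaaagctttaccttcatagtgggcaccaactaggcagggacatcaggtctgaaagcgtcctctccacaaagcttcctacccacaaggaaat
Cd300lf: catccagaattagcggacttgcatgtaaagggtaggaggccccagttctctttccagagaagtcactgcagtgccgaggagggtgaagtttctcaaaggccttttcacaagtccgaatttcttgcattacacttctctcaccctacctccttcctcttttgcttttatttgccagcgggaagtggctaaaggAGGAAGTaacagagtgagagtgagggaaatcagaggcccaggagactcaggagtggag
The match began 97 bases before the start in Cd300a and 58 bases before it in Cd300lf, both on the strand shown. The motif AGGAAGT, searched on both strands, was present in 7.08% of the 33469 promoter windows of the table. It was searched after these sequences had been read, so the shared match is a description only. Also searched on both strands were the element bound by PPAR and RXR, a direct repeat of AGGTCA with 1 base between the copies (0.0508% of windows), a single AGGTCA, which is part of it (14.1%), and AGATAA, a core bound by GATA factors (10.3%). None of these 3 was found in the windows of Cd300a, Cd300lf, Lilrb4, Cd33 (2 windows) or Allc, the 5 of 9 genes matched to the promoter table by symbol and GeneID. Only exact letters within the 250 bases were searched, so a looser or more distant element would be missed.

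Klrg1 (GeneID 58975) encodes a C-type lectin-like receptor with an inhibitory motif that binds cadherins. It was at 126, 133 and 128 FPKM in PIO replicates 1 to 3, against 129, 121 and 127 FPKM in control replicates 1 to 3. The groups overlapped, and the highest and the lowest library were PIO replicate 2 and control replicate 2. The means were 129 ± 3.32 FPKM with PIO and 126 ± 4.02 FPKM in control (SD, n = 3 each). This gave a log2 fold change of 0.04 (SE 0.04, 95% interval -0.05 to 0.12, limma adjusted p = 0.698), and 0.011 without control replicate 2. Between 3724 and 3993 reads stood behind each PIO value, and between 3597 and 4095 reads behind each control value. By mean FPKM, Klrg1 ranked 633 of the 22601 listed genes, while the related gene Klrg2 averaged 0.0574 FPKM.

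Among tested genes with symbols not starting LOC or RGD, the closest to Klrg1 in pattern over the 6 libraries were Rpl12, Batf and Snx2. Closeness was the root mean square difference of log2 values centred on each gene's mean. Rpl12, a ribosomal protein gene, differed by 0.00647, against a median of 0.0861 over all genes tested. Batf, which encodes a transcription factor of the AP-1 family, differed by 0.0122, and the sorting nexin gene Snx2 by 0.013. All 3 genes had, like Klrg1, their lowest value in control replicate 2 and their highest in PIO replicate 2. They were chosen for matching Klrg1 over these same 6 libraries, so this likeness is a description only.

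Cd200r1 (GeneID 64357) encodes the receptor of CD200, which inhibits mast cells through the adaptors of the Dok family rather than through a classical inhibitory motif. It was at 27.2, 26.3 and 25.0 FPKM in PIO replicates 1 to 3, against 26.4, 26.1 and 27.7 FPKM in control replicates 1 to 3. The groups overlapped, and the lowest value was that of PIO replicate 3. The log2 fold change was -0.03 (SE 0.05, 95% interval -0.14 to 0.08, limma adjusted p = 0.793), and -0.00078 without PIO replicate 3. A pseudogene, Riox2-ps1, overlaps its span in the RefSeq annotation of GRCr8, and the related gene Cd200r1l averaged 0.0827 FPKM.

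Lilrb4 (GeneID 292594) encodes a receptor of the leukocyte immunoglobulin-like family, whose mouse counterpart gp49B restrains mast cells. It was at 1.37, 1.16 and 1.96 FPKM in PIO replicates 1 to 3, against 1.57, 1.36 and 2.43 FPKM in control replicates 1 to 3. Replicate 3 was the highest of each group, and the groups overlapped. The values rested on 30, 26 and 43 reads in PIO replicates 1 to 3 and 37, 30 and 56 reads in control replicates 1 to 3. The log2 fold change was -0.19 (SE 0.20, 95% interval -0.65 to 0.27, limma adjusted p = 0.706), and without control replicate 3 it was 0.0032. The family has near copies, so the reads of single members are uncertain. Of 10 listed genes with Lilr or Pir names, 8 averaged under 0.5 FPKM, 5 of them at 0 in all libraries. The other two were Lilrb4 and Lilrb3a.

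Cd33 (GeneID 690492) encodes a lectin of the Siglec family that binds sialic acid. It was at 0.662, 0.541 and 0.917 FPKM in PIO replicates 1 to 3, against 0.240, 0.586 and 0.874 FPKM in control replicates 1 to 3. Control replicate 1 was lowest, PIO replicate 3 was highest, and the groups overlapped. These values came from 18, 15 and 25 reads in PIO replicates 1 to 3 and 7, 16 and 25 reads in control replicates 1 to 3. The log2 fold change was 0.21 (SE 0.23, 95% interval -0.32 to 0.74, limma adjusted p = 0.718), and without control replicate 1 it was -0.03. Its mean of 0.637 FPKM was the lowest of the genes that reached the test. The SD between replicates was 27.2% of the mean with PIO and 56.0% in control, where counting error alone gives 22.7% and 25.0%.

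**Figure D2:**
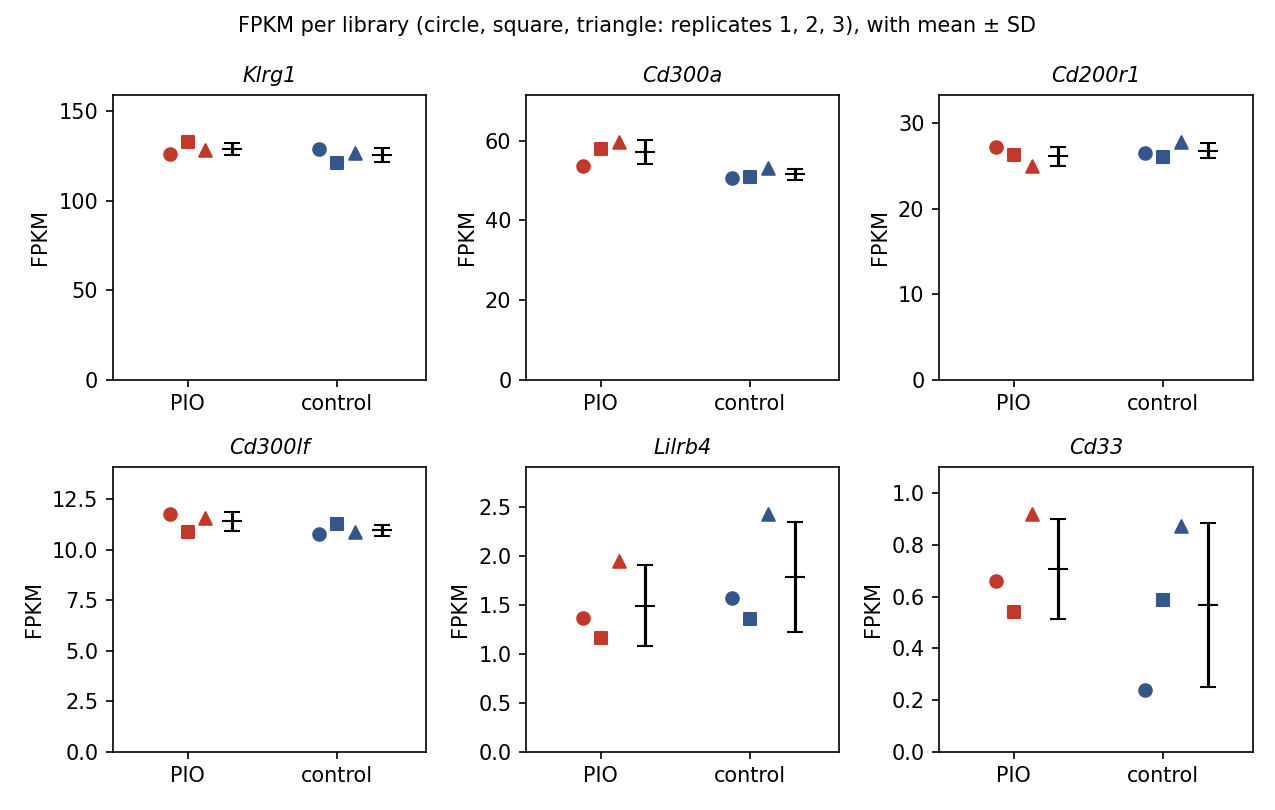
FPKM (axes from 0) of the 6 tested genes in the PIO libraries (red, left) and control libraries (blue, right), with circle, square and triangle for replicates 1, 2 and 3 and the mean ± SD beside them in black (n = 3 each). The groups separate only for Cd300a, at 53.7 to 59.5 FPKM with PIO and 50.7 to 53.2 FPKM in control.

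Pirb, Sirpa and Allc were not tested. Pirb encodes the paired immunoglobulin-like receptor B, which in mouse binds MHC class I molecules. It was listed at 0 in all 3 PIO libraries and in control replicates 1 and 2, and at 0.0257 FPKM in control replicate 3, which is 1 read. Sirpa encodes the receptor of CD47, the signal that protects cells from being engulfed. It was listed at 0.0150 FPKM, or 1 read, in PIO replicate 1 and at 0 in the other 5 libraries. By these counts both genes stayed under a floor of 3 reads in every library, which corresponds to 0.0755 to 0.0811 FPKM for Pirb and 0.0418 to 0.0449 FPKM for Sirpa. For a gene seen in a single library, 1 read is the smallest count that fits, so these reads and floors are uncertain. Allc was listed at 0 in all 6 libraries. A value of 0 in the table need not mean that a transcript was missing, because 1 of 26 genes that every cell uses, Polr2h, was also listed at 0 in all 6 libraries. The name Pirb is uncertain as well, because the GeneID given for it, 65146, carries the symbol Lilrb2 in the RefSeq annotation of GRCr8. There the symbol Pirb belongs to GeneID 683463, which the deposited table lists as Lilrb3a. Lilrb3a, named after its values were seen, was at 0.868, 0.601 and 1.04 FPKM in PIO replicates 1 to 3, against 1.76, 0.712 and 1.48 FPKM in control replicates 1 to 3. The groups overlapped, with control replicate 2 below PIO replicates 1 and 3. Its reads numbered 34, 24 and 41 in PIO replicates 1 to 3 and 74, 28 and 61 in control replicates 1 to 3. Lilrb3a had a log2 fold change of -0.41 (SE 0.24, 95% interval -0.95 to 0.13, limma adjusted p = 0.501). It was -0.23 without control replicate 1 and -0.68 without control replicate 2 (limma adjusted p = 0.683 and 0.554).

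The relatives of these genes were mostly at or near 0 as well. Beside Cd300a and Cd300lf, the CD300 family held 6 other listed genes, of which Cd300e averaged 12.3 FPKM and the remaining 5 under 0.5 FPKM. All 4 listed genes of the Sirp family averaged under 0.5 FPKM, 3 of them at 0 in all libraries. The same held for 6 of 7 genes of the Siglec family, counted with Cd33. These family lists were drawn up after the values were seen.

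The phosphatases and kinases through which inhibitory motifs signal were well expressed, and none of the 12 tested genes of the 15 on this list passed the test. Ptpn6, which encodes SHP-1, averaged 177 ± 2.30 FPKM with PIO and 171 ± 2.21 FPKM in control (SD, n = 3 each; limma adjusted p = 0.49). Ptpn11, which encodes SHP-2, averaged 62.2 ± 1.03 FPKM with PIO and 63.7 ± 1.31 FPKM in control (adjusted p = 0.701 by limma). Inpp5d, which encodes SHIP-1, averaged 55.5 ± 0.588 FPKM with PIO and 55.2 ± 1.25 FPKM in control (adjusted p = 0.931 by limma). Of the kinases, Lyn, which phosphorylates inhibitory and activating motifs alike, averaged 65.9 ± 0.620 FPKM with PIO and 67.2 ± 0.135 FPKM in control (adjusted p = 0.712 by limma). Csk, which restrains Src-family kinases, averaged 112 ± 4.26 FPKM with PIO and 109 ± 2.31 FPKM in control (adjusted p = 0.74 by limma).

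The adaptors of the Dok family, only some of which couple CD200R1 to RasGAP, were expressed at lower levels. Dok1 averaged 39.0 ± 0.497 FPKM with PIO and 38.7 ± 2.56 FPKM in control (SD, n = 3 each; limma adjusted p = 0.945). Dok2 averaged 18.6 ± 0.753 FPKM with PIO and 19.5 ± 0.722 FPKM in control (log2 fold change -0.07, adjusted p = 0.596 by limma). Rasa1, the gene of RasGAP itself, averaged 23.7 ± 1.91 FPKM with PIO and 25.9 ± 0.630 FPKM in control (log2 fold change -0.12, adjusted p = 0.437 by limma), and its groups overlapped. Dok3, named here after its values were seen, was at 24.8, 24.6 and 25.2 FPKM in PIO replicates 1 to 3, against 21.9, 20.3 and 22.8 FPKM in control replicates 1 to 3. The groups of Dok3 did not overlap, as in 10.5% of all genes tested with PIO higher. Its log2 fold change of 0.20 (SE 0.05) did not pass (limma unadjusted p = 0.00471, adjusted p = 0.297). By limma 12.5% of all genes had an unadjusted p under 0.05. Dok3 had the smallest p of the 24 tested genes of the 5 partner lists, none of which passed. Of these 24, 5 separated with PIO higher (Dok3, Ptpn6, Inppl1, Pecam1 and B2m) and 2 with PIO lower (Lyn and Fcgr2b). Over all genes tested, 10.5% separated with PIO higher and 8.09% with PIO lower.

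Few of the ligands were detected in the same cells. Cd47, the ligand of SIRPα, averaged 34.3 ± 0.36 FPKM with PIO and 35.5 ± 1.54 FPKM in control (SD, n = 3 each; limma adjusted p = 0.669). B2m, the light chain of MHC class I, averaged 473 ± 5.18 FPKM with PIO and 459 ± 2.86 FPKM in control (adjusted p = 0.534 by limma). Its PIO libraries all lay above its control libraries, and its direction turned under quantile normalization (log2 fold change -0.0113). Cd200 had at most 1 read in a PIO library and at most 3 reads in a control library. Cdh1, the E-cadherin gene and a ligand of KLRG1, had 5 to 7 reads in PIO libraries and 3 to 10 reads in control libraries. Both ligand genes were too low for the test.

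Among inhibitory receptors outside the set, Milr1 and Fcgr2b stood higher than any gene in it. Milr1, the gene of the mast cell receptor allergin-1, was at 278, 287 and 290 FPKM in PIO replicates 1 to 3, against 279, 258 and 318 FPKM in control replicates 1 to 3. Its control libraries spread on both sides of the PIO libraries (log2 fold change 0.0033, limma adjusted p = 0.99). Fcgr2b, the inhibitory IgG receptor gene, was at 199, 188 and 182 FPKM in PIO replicates 1 to 3, against 206, 202 and 203 FPKM in control replicates 1 to 3. All PIO libraries lay below all control libraries, as in 8.09% of all genes tested, and the log2 fold change of -0.10 (SE 0.04) did not pass (limma adjusted p = 0.371). Pecam1, an adhesion receptor with inhibitory motifs, averaged 65.9 ± 0.909 FPKM with PIO and 63.4 ± 2.00 FPKM in control (adjusted p = 0.544 by limma). Lair1, a collagen receptor, had at most 2 reads in any library. Of the 20 genes on this list 18 were listed, 7 were tested, 6 higher and 1 lower by the sign of the log2 fold change, and 0 passed by limma. Milr1 counts as higher on the log2 scale, although its mean FPKM was 0.132% lower with PIO than in control, and its sign turned under TPM, median-of-ratios and quantile scaling.

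Activating receptors of the same families signal through the adaptors FcRγ and DAP12. Fcer1g, the FcRγ gene, averaged 616 ± 26.7 FPKM with PIO and 562 ± 45.7 FPKM in control (SD, n = 3 each; limma adjusted p = 0.411). Tyrobp, the DAP12 gene, had 1 read in each of PIO replicates 1 and 3 and 0 in the other 4 libraries. Of 17 genes on the list of activating counterparts 14 were listed and 3 tested, and none passed. In the pathway of uric acid breakdown, to which Allc belongs, Uox had at most 1 read and Xdh at most 3 reads in a library, and none of the 3 listed genes could be tested.

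**Figure D3:**
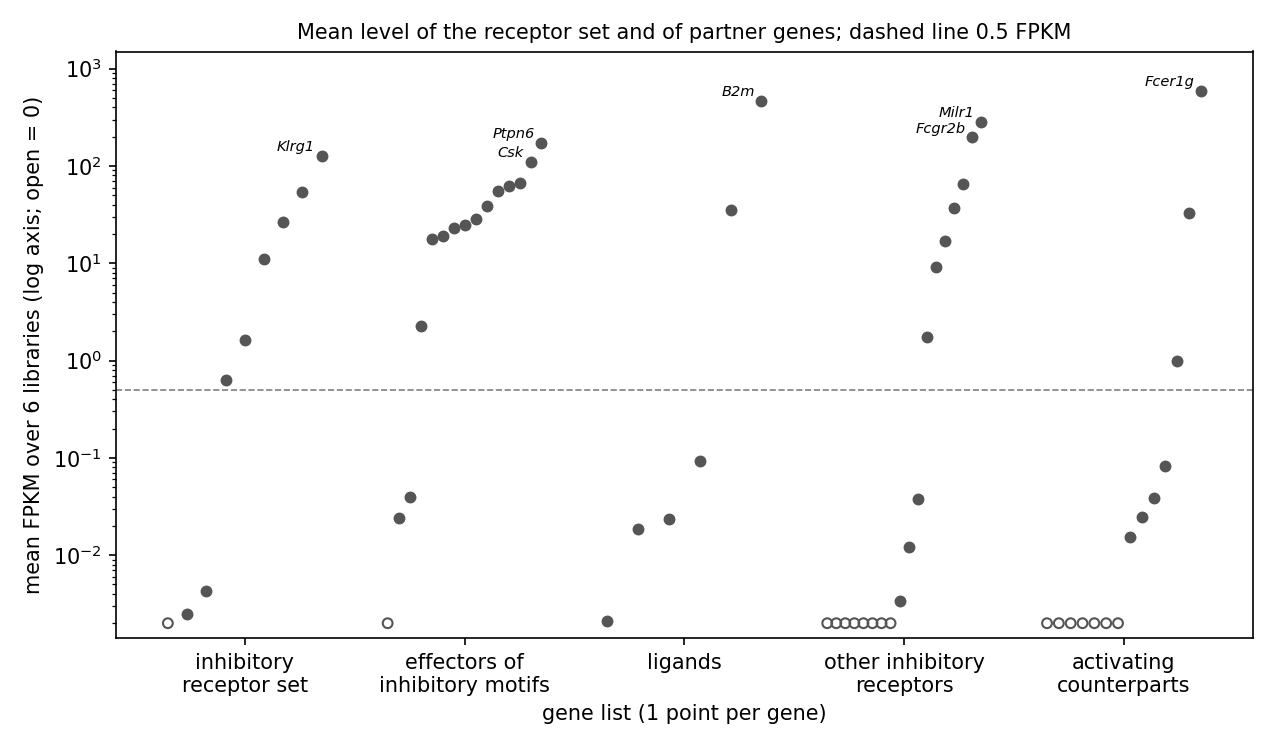
Mean FPKM over the 6 libraries (log axis, open symbols for 0) of the 9 genes of the set and of 4 lists of partner genes, 1 point per gene, with names beside genes of at least 100 FPKM and a dashed line at 0.5 FPKM. Milr1, Fcgr2b, B2m, Ptpn6 and Fcer1g lie above Klrg1, the highest gene of the set.

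Over the 5 partner lists, 17 of 24 tested genes were higher and 7 lower with the values as deposited, and their median log2 fold change was 0.03. Over all 10410 genes tested, 5618 were higher and 4792 lower. The balance of the lists was not stable: with each library scaled to the same sum of FPKM, 12 were higher and 12 lower. The median log2 fold change over all genes tested also moved with this scaling, from 0.0094 to -0.0179. The signs of the 6 tested genes of the set were the same under this scaling, median-of-ratios scaling and quantile normalization.

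**Figure D4:**
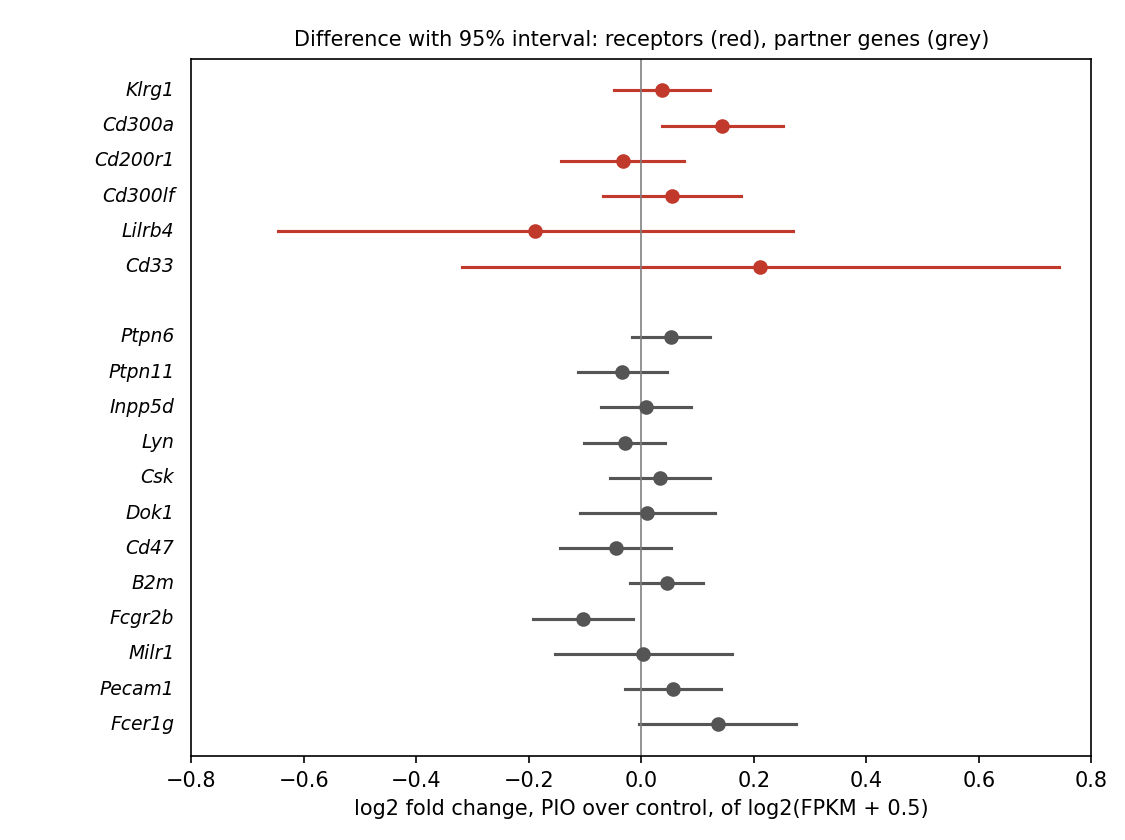
Log2 fold change of log2(FPKM + 0.5), PIO over control, with its 95% interval by limma, for the 6 tested genes of the set (red) and 12 partner genes (grey), from 3 libraries per group. The interval leaves out 0 for Cd300a (0.04 to 0.25) and Fcgr2b (-0.19 to -0.01), neither of which passed the adjustment over 10410 genes, and is widest for Cd33 (-0.32 to 0.74) and Lilrb4.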

How the data were processed

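RNA-seq of 6 libraries of RBL-2H3 cells was used, 3 given PIO and 3 control, grouped by their titles. The authors deposited FPKM, 1 value for each gene in each library. Tools named, per the submitters' processing notes, were HTSeq, DESeq, Cufflinks, HISAT2 2.2.1.0, SAMtools 1.3.1, BWA 0.7.5a, FastQC 0.11.5 and Trimmomatic 0.36, with no roles given. The notes name a human build, GRCh38, although the table lists rat genes, so the build used is unclear. Per the labels' protocols, libraries were made with a stranded mRNA kit.

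Whole reads and a whole gene length were recovered from the FPKM of the 15429 genes above 0 (tolerance 1e-04 of a read, wider in proportion for genes with many reads). The recovered reads made up 99.5% of the library totals, which were themselves inferred from the FPKM. For each gene the smallest whole length that gave whole reads was taken. Floors and counting errors cover counting error only. The 10410 genes that averaged 0.5 FPKM or more entered a test of log2(FPKM + 0.5) by limma 3.58.1 (R 4.3.3). The model had the group alone and a variance trend, tests were two-sided, and p-values were adjusted by Benjamini-Hochberg, with a threshold of 0.05. Log2 fold changes of low genes come out too small on this scale. For 27 genes listed under a date, the GeneID gave the symbol. On simulated data for PIO against control (10415 genes, 200 changed to a fold of 2 up or down), the code recovered 97.5% of the changed genes, with 2.5% of its calls false. The simulation gave every gene the same dispersion (0.0019), taken from control genes with many reads. It therefore does not measure how often smaller differences, or differences of low or more variable genes, would be found. An exact permutation test of 3 against 3 cannot go below p = 0.1 and was not used.

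All 9 genes are named, with a fixed choice of partner genes and the 3 genes closest in pattern to the highest of the 9. Genes with symbols starting LOC or RGD were left out of the search for the closest genes. The genes and lists were chosen with earlier results of these data known. Other settings tried were a pseudocount of 0.1 or 1, dropping the filter or raising it to 1 or 5 FPKM, scaling to equal sums (TPM), median-of-ratios and quantile scaling, no variance trend, a robust fit, a replicate block, limma-voom on the reads, and leaving out each library. Protein sequences were not analysed here. Python 3.11.15, numpy 2.4.6, pandas 2.3.3 and matplotlib 3.10.9 were used.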

Additional observations from a re-analysis of the deposited data

How the results depend on the processing

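The number of genes called over the whole table was 4. It was 1 without a filter on low values, 2 without a variance trend, 7 with the robust fit and 7 with limma-voom on the recovered reads. It was 2 to 4 when each library was left out in turn, lowest without control replicate 1. Of the 9 genes and of the partner lists, 0 were called under each of the 18 alternatives. Same-numbered PIO and control libraries did not deviate together (correlations of -0.0682, 0.0277 and 0.0776 across genes), and not every library correlated best with its own number. These values show no pairing by number, but they cannot show whether same-numbered libraries were handled together. With the replicate block 3 genes were called, and 0 of the set. Cd300a stayed higher in all 18 alternatives, with log2 fold changes of 0.11 to 0.19 and limma adjusted p of 0.173 to 0.69. Klrg1, Cd300lf and Cd200r1 also kept their signs, but not their sizes: with each library left out in turn, Klrg1 ran from 0.011 (without control replicate 2) to 0.0559 (without control replicate 1), Cd300lf from 0.0335 (without PIO replicate 1) to 0.087 (without PIO replicate 2) and Cd200r1 from -0.0608 (without PIO replicate 1) to -0.00078 (without PIO replicate 3). Lilrb3a stayed lower, at -0.675 (without control replicate 2) to -0.2256 (without control replicate 1).

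Some small differences turned. With each library left out in turn, Lilrb4 ran from -0.3481 to 0.0032 (without control replicate 3), Cd33 from -0.0295 (without control replicate 1) to 0.4171, Inpp5d from -0.0097 (without control replicate 2) to 0.0195 and Dok1 from -0.0445 (without control replicate 1) to 0.04. TPM scaling turned Inpp5d (-0.0199), Dok1 (-0.0177) and Milr1 (-0.0259), and quantile normalization turned B2m (-0.0113) and Milr1 (-0.0256). Milr1 also turned under median-of-ratios scaling (-0.0031) and in 4 of the 6 fits without a library, which ran from -0.0656 to 0.0849. The cause was not tested. Lilrb4 and Cd33 had only 7 to 56 reads in a library, so only a large difference could be seen. For both genes the SD of 3 libraries also came out above the counting error in each group, a difference that was not tested. For Lilrb4 the SD was 27.5% of the mean with PIO and 31.6% in control, where counting error alone gives 17.4% and 15.6%. Lilrb4 could not be tested at a minimum mean of 5 FPKM, nor Cd33 at 1 or 5 FPKM.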
